A study of Homo sapiens with 2 samples.

Results

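The ubiquitin-conjugating enzyme genes described here were the protein-coding genes whose symbol begins with UBE2 in GENCODE release 44 lifted to hg19, 35 of 19794 coding genes. NRF-1 occupancy at their promoters was read from 2 peak lists of U251, an established cell line of human glioblastoma. One list came from cells transfected with siControl, a control siRNA, and the other from cells transfected with siAATF, an siRNA against AATF, a transcriptional cofactor. Chromatin was precipitated with an antibody to NRF-1 and tagged by the Tn5 transposase (ChIPmentation) before sequencing, and MACS2 called the peaks on hg19. The labels of both libraries and the paper's account of its NRF-1 ChIP-seq name U251, while the design text of the series names U138. The labels were followed.

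Peaks numbered 18014 in siControl and 18454 in siAATF. There was 1 list per condition and no replicate, no input library was named and the number of reads was unknown, so every difference between the lists is a description of these lists with no test and no error between replicates. The promoter of a gene comprised every base within 1 kb of a start of one of its protein-coding transcripts. The fold enrichment of a peak is its signal over the local background, and the −log10 q is the significance that MACS2 gave it after correction for multiple testing. Because both depend on the library, each was also expressed as a percentile rank among the peaks of the same list, where 0 is the weakest and 100 the strongest. Where a gene had several promoter peaks, the peak with the highest fold enrichment stood for it. The level of AATF was not measured in these libraries, though the paper shows a western blot of the transfected U251 cells behind its ChIP-seq.

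Ubiquitin is joined to proteins by a relay in which an E1 enzyme activates it, a conjugating enzyme (E2) carries it on a cysteine, and an E3 ligase brings it to the substrate. The E2 often sets which lysine of ubiquitin is used to build a chain, and so whether the substrate goes to the proteasome or into a signalling or repair pathway. Some members of the family carry ubiquitin-like proteins such as SUMO, NEDD8 or ISG15, and a few variants lack the catalytic cysteine. NRF-1 binds, as a dimer, a palindrome made of the half-site GCGCA followed directly by TGCGC, which is frequent in CpG-rich promoters of housekeeping and mitochondrial genes.

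The palindrome, or core, with up to 1 mismatch was found in promoter peaks of 10 UBE2 genes, at 12 positions. The windows of 30 bases around these matches are shown because they are the occupied stretches most like the NRF-1 palindrome in the family. Each is written 5′ to 3′ on the strand of the gene, with the 10 bases of the match in capitals, and coordinates are on hg19.
UBE2K, chr4:39699727-39699756, plus strand: tcaacgtcgtGCGCATGCGCcgacccggcg
UBE2R2, chr9:33817058-33817087, plus strand: ggaggggcacGCGCACGCGCgtcgggccgc
UBE2G2, chr21:46221771-46221800, minus strand: ctcggcgatcGCGCACGCGCcacgccccgg
UBE2G1, chr17:4269942-4269971, minus strand: cagtctcagcGCGCCTGCGCcgagcggccc
UBE2G1, chr17:4268636-4268665, minus strand: tgtgtgcgcgGAGCATGCGCagtggagacg
UBE2D3, chr4:103790166-103790195, minus strand: ccaagctgccGCGCCTGCGCcgggagcgga
UBE2D4, chr7:43966010-43966039, plus strand: tgccccgcgcGCGCAAGCGCaggctgcggc
UBE2V1, chr20:48729724-48729753, minus strand: gcgtgcgcgcGCGCCTGCGCatcagggccg
UBE2V1, chr20:48732632-48732661, minus strand: cggtgatcagGCGCAGGCGCcggaaggaat
UBE2T, chr1:202311064-202311093, minus strand: gtcagaggtcGCGCAGGCGCtggtaccccg
UBE2M, chr19:59070328-59070357, minus strand: tgcggcggctGCGCAGGCGCacaacgcagg
UBE2J2, chr1:1209370-1209399, minus strand: gcccgccagtGCGCAAGCGCcgccccgccc

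UBE2K alone held the exact palindrome. Of the other 11 matches, 10 departed from it at position 5 or 6, the centre of the palindrome, counted from 1 at its 5′ end. Over all siControl promoter peaks, 70.6% of 2916 matches with 1 mismatch did so. UBE2R2 and UBE2G2 carried T6C, UBE2D4 and UBE2J2 carried T6A, and 6 matches carried A5C or T6G, which are the same word read on opposite strands. The one match with a mismatch outside the centre was the second of UBE2G1, with C2A. The A5C or T6G word made up 6 of the 12 matches in the family and 35.7% of 3343 matches over 11695 promoter peaks, where it was also the most frequent class, and the exact palindrome made up 12.8%.

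Matches were sought only inside promoter peaks and measured from the nearest coding start, so closeness to a start was largely built in. Of the 12, 11 were centred within 200 bp of a coding start of their gene. Of the same 12, 10 lay within 100 bp of the midpoint of the siControl peak. Neither share was computed over all promoter peaks, so these counts cannot be called high or low. In the annotation 7 lay upstream of the gene, 4 in an untranslated region and the second of UBE2G1 in an intron, 1272.5 bp after the nearest start. Counted from the nearest coding start, negative upstream, the first match of UBE2V1 was centred at −3.5 bp, that of UBE2D4 at −10.5 bp and that of UBE2T at −11.5 bp. The match of UBE2D3 was centred at −127.5 bp from one of its starts but inside an exon of CISD2, which is transcribed the other way from 96 bp away. All 10 genes held the same matches inside their siControl and siAATF peaks.

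**Figure D1:**
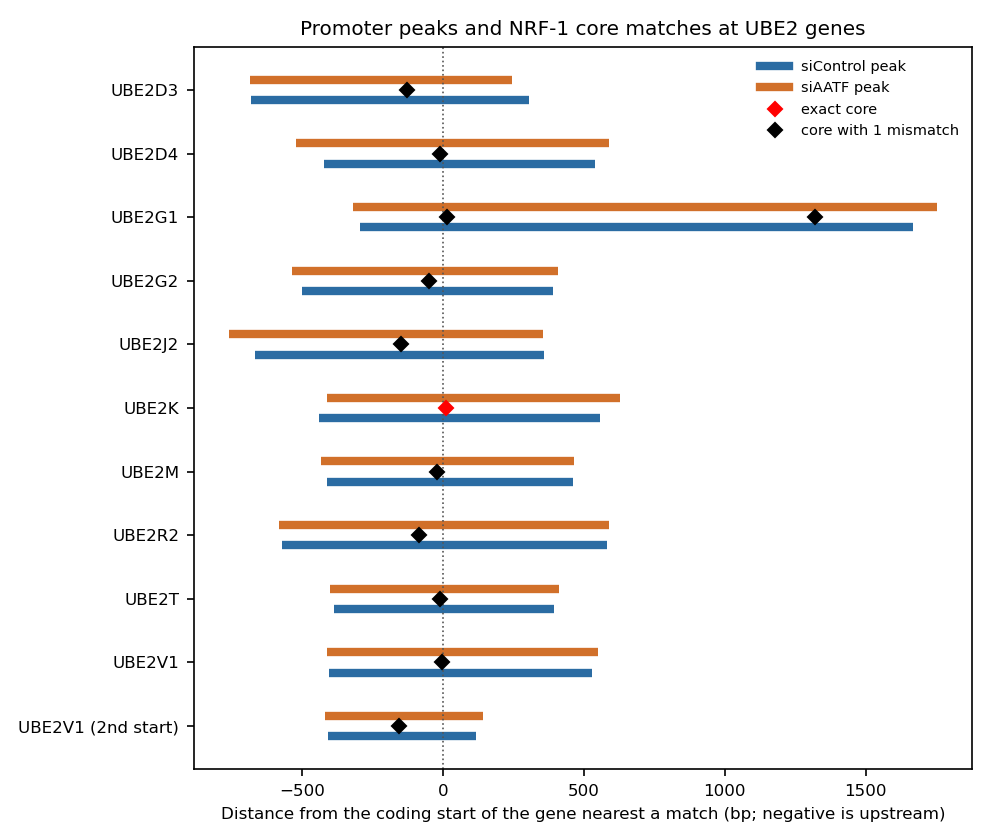
Extent of the promoter peaks (bars, siControl blue and siAATF orange) and positions of core matches (diamonds, red for exact and black for 1 mismatch) in the 10 UBE2 genes with a match, in bp from the coding start of the gene nearest a match (negative is upstream). The bars of both lists cover nearly the same stretch at each gene, and all matches but the intronic one of UBE2G1 sit within 200 bp of the start.

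UBE2R2, a partner of cullin-RING ligases that extends K48-linked chains, is also shown over the 150 bases before its start because a whole upstream stretch lets the setting of a match be read. The stretch has 76% G and C and 13 CpG steps, and the match, in capitals, is its only one with up to 1 mismatch.
UBE2R2, chr9:33817008-33817157, plus strand: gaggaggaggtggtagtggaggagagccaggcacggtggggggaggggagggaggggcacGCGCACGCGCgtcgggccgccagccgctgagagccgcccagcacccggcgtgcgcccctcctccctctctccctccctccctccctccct

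NRF-1 promoter peaks were present at 33 of the 35 UBE2 genes in siControl, 94.3% (exact Clopper-Pearson 95% interval 80.8 to 99.3, counting error only), against 61.1% of all coding genes. In siAATF the count was again 33, against 60.7% of all coding genes, and the same 33 genes had a peak in both lists. A promoter peak in 1 list only was found at 2.79% of all coding genes and at 0 UBE2 genes. UBE2QL1 and UBE2U had no promoter peak in either list. The family has GC-rich promoters. In the window from 250 bases before to 50 after the canonical start, the median G and C content was 72.0% in UBE2 genes and 63.7% in all coding genes. Of the 12872 coding genes within the range of the members, 58.3% to 82.3%, 76.1% had a siControl peak and 75.5% a siAATF one. Of the 4520 coding genes with a G and C content at or above the median of the members, 83.4% had a siControl peak. UBE2QL1, which had the most GC-rich window of the family at 82.3%, was without a peak, and so was UBE2U, with 59.0% and the lowest ratio of observed to expected CpG, 0.499.

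The peaks sat on the starts and coincided between the lists. The canonical start lay inside the peak at 32 of 33 genes in siControl and 31 of 33 in siAATF, with UBE2D3 outside in both lists and UBE2B outside in siAATF. Midpoints lay a median of 66 bp from the nearest coding start in siControl and 74.5 bp in siAATF. Each list held 35 promoter peaks of the family, since UBE2D3 and UBE2V1 had 2, and every one was overlapped by a peak of the other list. Such sharing was not particular to the family, since 11774 of the 12095 coding genes with a siControl promoter peak also had a siAATF one. The positions relative to starts and the extent of overlap were not computed over all coding genes. The overlap covered a median of 96.6% of the siControl peak, from 60.3% at UBE2B to complete cover. The median width was 923 bp and 899 bp in the 2 lists, beside 854 bp and 866 bp for all coding genes with a promoter peak.

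The typical UBE2 peak was more significant than the typical coding promoter peak while its fold enrichment was close to it. For the 33 genes the −log10 q had a median of 27.8 in siControl and 23.7 in siAATF, beside 18.0 and 17.4 over all coding genes with a promoter peak. The median rank by −log10 q was 74.4 and 72.9, beside 65.0 and 66.1. By fold enrichment the median rank was 66.3 and 69.5, beside 63.4 and 64.4. A rank above 90 by −log10 q was reached by 8 of 33 UBE2 genes in siControl, where 15.8% of coding genes with a promoter peak reached it, and by 9 of 33 in siAATF, where 16.5% did.

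**Figure D2:**
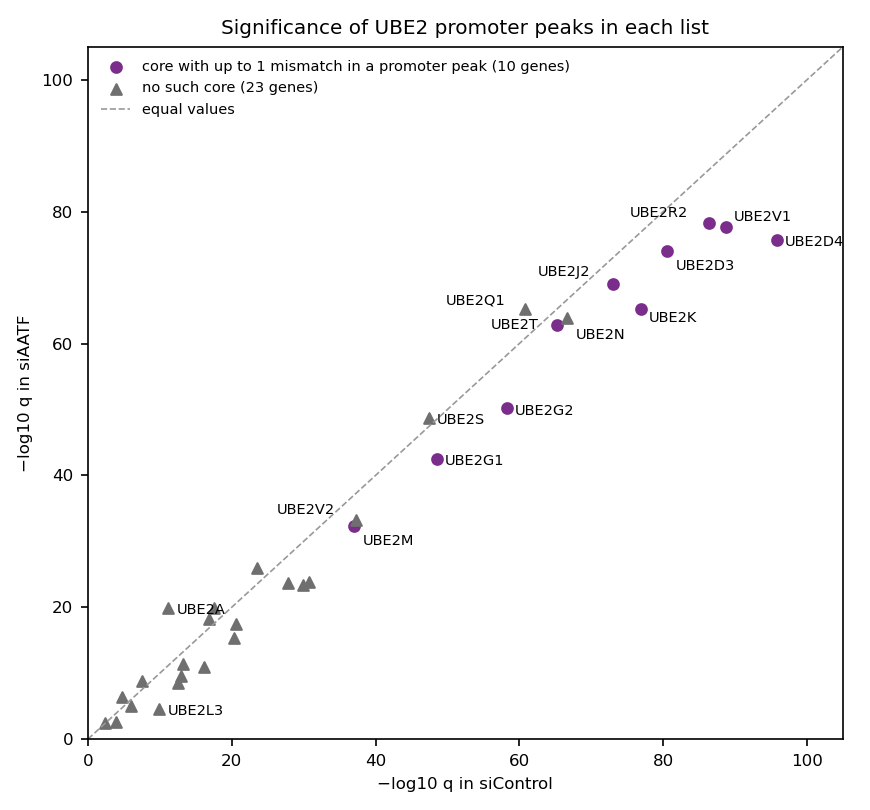
The −log10 q of the promoter peak of each UBE2 gene in siControl (x axis) and siAATF (y axis), with the 10 genes that hold a core match as purple circles and the 23 others as grey triangles. The purple circles run from UBE2M at 37.01 in siControl to UBE2D4 at 95.8, with 4 grey triangles (UBE2N, UBE2Q1, UBE2S and UBE2V2) in the same range and the other triangles below it.

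The 4 genes for E2 enzymes that build K48-linked chains, the main proteasomal signal, were occupied in both lists and all 4 held a core match, where 24.4% of all coding genes with a siControl promoter peak and 10 of 33 in the family did. The group is small and was formed with these results known, and 3 other groups of members, the UBE2E genes, the partners of the anaphase-promoting complex and the members with other roles, held 0 matches. UBE2R2 had a fold enrichment of 7.06 in siControl and 6.83 in siAATF, with a −log10 q of 86.4 and 78.3. UBE2K, which makes K48 chains without an E3 in vitro and held the exact palindrome, had 8.75 and 7.93, with a −log10 q of 76.9 and 65.2. Both ranked above 90 by −log10 q in each list. UBE2G2, an E2 of endoplasmic reticulum (ER)-associated degradation, had 8.85 and 7.81, with a −log10 q of 58.3 and 50.2. UBE2G1, which extends chains on substrates of cullin-RING ligases, had the widest peak of the family, 1963 bp in siControl and 2073 bp in siAATF, spanning both of its matches. Its fold enrichment was 4.59 and 4.22 and its −log10 q 48.5 and 42.5, so that it ranked at 29.6 by fold enrichment and at 84.7 by −log10 q in siControl. All 4 genes ranked at 84.7 or above by −log10 q in siControl.

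The UBE2D genes encode E2 enzymes that work with many RING ligases and often place the first ubiquitin. UBE2D4 had the highest −log10 q of the family in siControl, 95.8, and 75.7 in siAATF, with a fold enrichment of 8.95 and 7.50. UBE2D3 had 80.6 and 74.1, with a fold enrichment of 8.996 and 9.235, at the peak it shares with CISD2. Which of the 2 genes the peak of UBE2D3 serves cannot be told from position, and the peak at its canonical start, chr4:103748281-103749643, was weaker, with a −log10 q of 12.5 in siControl and 12.0 in siAATF and no core match. The peak of UBE2D4 likewise overlapped the promoter of URGCP, whose start lies 25 bp away on the other strand. UBE2D1 and UBE2D2 held no match and had a −log10 q of 30.7 and 20.3 in siControl. The UBE2E genes, related E2 enzymes with an N-terminal extension, held no match. Their −log10 q ran from 3.89 for UBE2E1 to 29.9 for UBE2E2 in siControl and from 2.55 to 23.7 in siAATF. UBE2E1 had the third lowest rank by fold enrichment in siControl, at 24.4, with a fold enrichment of 4.33, and 14.2 in siAATF, with 3.80.

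UBE2N pairs with UBE2V1 or UBE2V2, variants without a catalytic cysteine, to make the K63-linked chains used in DNA damage tolerance and immune signalling. UBE2V1 had a −log10 q of 88.7 in siControl and 77.6 in siAATF, with a fold enrichment of 6.63 and 5.93. Its second peak, at an upstream start that also held a match, had a −log10 q of 28.3 and 22.5. UBE2N was the only UBE2 gene in siControl that ranked above 90 by −log10 q without a core match. Its fold enrichment was 9.06 and 8.87, and its −log10 q 66.6 and 63.9. UBE2V2, also without a match, ranked at 97.6 by fold enrichment in siControl and at 79.9 by −log10 q.

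UBE2Q1, a member with a long N-terminal region, was the other gene without a match among the strongest. The −log10 q of its peak, 60.8 in siControl and 65.3 in siAATF, corresponded to ranks of 89.3 and 93.9. The windows nearest to the palindrome in the peaks of UBE2N and UBE2Q1 are shown for comparison with those above. Each has 2 mismatches, in the part written in capitals, and all 3 lie upstream of the gene.
UBE2N, chr12:93836002-93836031, minus strand, T6G and G7T: agagacgcgcGCGCAGTCGCgcgcgggtcg
UBE2Q1, chr1:154531413-154531442, minus strand, T6A and G9A: ggggcgtcgcGCGCAAGCACgcacgacata
UBE2Q1, chr1:154531434-154531463, minus strand, T6G and C10A: tgagaggggaGCGCAGGCGAaggggcgtcg

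The window of UBE2N was centred at −293.5 bp from the nearest coding start, and those of UBE2Q1 at −289.5 bp and −310.5 bp. Matches with up to 2 mismatches are common. In siControl 69.7% of UBE2 genes with a peak held one, beside 68.7% of all coding genes with a promoter peak.

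Of the genes for DNA damage tolerance and repair, UBE2T, the E2 of the Fanconi anaemia pathway, had the highest fold enrichment of the family, 10.3 in siControl and 9.64 in siAATF. Its −log10 q was 65.3 and 62.8, and its rank by fold enrichment was 98.4 and 98.5. UBE2A and UBE2B, the closely related RAD6 enzymes that mark PCNA at stalled replication forks, held no match and stood far apart. The peak of UBE2B, chr5:133707052-133707376, was the weakest of the family by fold enrichment, at 2.44 in siControl and 2.38 in siAATF, with a −log10 q of 2.33 and 2.41. Its rank by fold enrichment was 0.522 and 0.434. The siControl peak covered the canonical start of UBE2B, and in both lists the peak also overlapped the promoter of CDKL3. A start of CDKL3 lies 143 bp from one of UBE2B, on the opposite strand. UBE2A is described below with the change between the lists.

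Among the E2 enzymes of ubiquitin-like proteins, UBE2M, which with UBE2F loads NEDD8 onto cullins, held a match while UBE2F and UBE2L6, the ISG15 enzyme, did not. UBE2M had a fold enrichment of 3.40 in siControl and 3.17 in siAATF, with a −log10 q of 37.01 and 32.3. Its rank was thus 5.43 by fold enrichment, the second lowest of the family, and 79.8 by −log10 q in siControl, and 2.86 and 79.1 in siAATF. A rank by −log10 q more than 50 points above the rank by fold enrichment was found at UBE2M and UBE2G1, 2 of 33 genes, and at 0.504% of 12095 coding genes with a siControl promoter peak. UBE2F had a −log10 q of 12.9 in siControl, and UBE2L6 had 4.67.

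The remaining groups had 1 match between them. UBE2J2, anchored in the ER membrane, held one and had a fold enrichment of 7.77 in siControl and 7.25 in siAATF, with a −log10 q of 73.0 and 69.0. Its relative UBE2J1 held none and had a −log10 q of 16.2 and 10.9. UBE2S, which extends chains on substrates of the anaphase-promoting complex, had a −log10 q of 47.4 and 48.7, and UBE2C, which starts them, 7.46 and 8.86. The other occupied genes, UBE2H, UBE2L3, UBE2L5, UBE2O, UBE2Q1, UBE2Q2, UBE2W and UBE2Z, held no match and ranked between 36.98 (UBE2Z) and 89.3 (UBE2Q1) by −log10 q in siControl.

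Core matches went with significance. The 10 genes with a match were 30.3% of the 33 with a peak, where 24.4% of all coding genes with a siControl promoter peak and 24.6% of those with a siAATF one held a match. Their median −log10 q in siControl was 74.9 (range 37.01 to 95.8), beside 16.8 (2.33 to 66.6) in the 23 without, and in siAATF 67.1 beside 17.4. A rank above 90 by −log10 q was held by 7 of the 10 and by 1 of the 23, UBE2N. Over all coding genes with a promoter peak in both lists, 55.2% with a match and 3.31% without held such a rank, so the split was not particular to the family. Fold enrichment separated the groups less, with a median of 8.26 (3.40 to 10.3) with a match and 6.92 (2.44 to 9.99) without in siControl. The median G and C content was 71.3% and 72.0%.

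The sequence around all coding starts was read in the same way. In the 300 bases from 250 before to 50 after the canonical start, a match with up to 1 mismatch was found in 8 of 35 UBE2 promoters, 22.9%, and in 10.6% of 19515 coding promoters, both strands being covered because the core is a palindrome. A control palindrome of the same bases and CpG steps, the half-site CGCAG followed directly by CTGCG, was found with up to 1 mismatch in 3 UBE2 promoters, 8.57%, and in 4.36% of all. Within siControl promoter peaks the control was found at 8 of 33 UBE2 genes, 24.2%, beside 16.8% of coding genes with a promoter peak, so both words were found more often in the family than over all genes.

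The second question was whether the peaks kept their place after AATF depletion. By rank they largely did in these lists, with differences in both directions. A rank within a list cannot show a change shared by all its peaks. The median fold enrichment was 6.96 in siControl and 6.83 in siAATF, beside 6.74 and 6.49 over all coding genes with a promoter peak. By fold enrichment 18 genes ranked lower in siAATF and 15 higher, beside 5755 lower and 6019 higher over 11774 coding genes. The median change of this rank, siAATF minus siControl, was −1.18 points, beside 0.156 points over all. The median size of the change was 5.68 points, beside 5.12. Ranked by −log10 q, the genes had a median change of −0.542 points, beside 0.467 over all. By this rank 19 were lower and 14 higher, beside 5234 lower and 6540 higher over all.

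**Figure D3:**
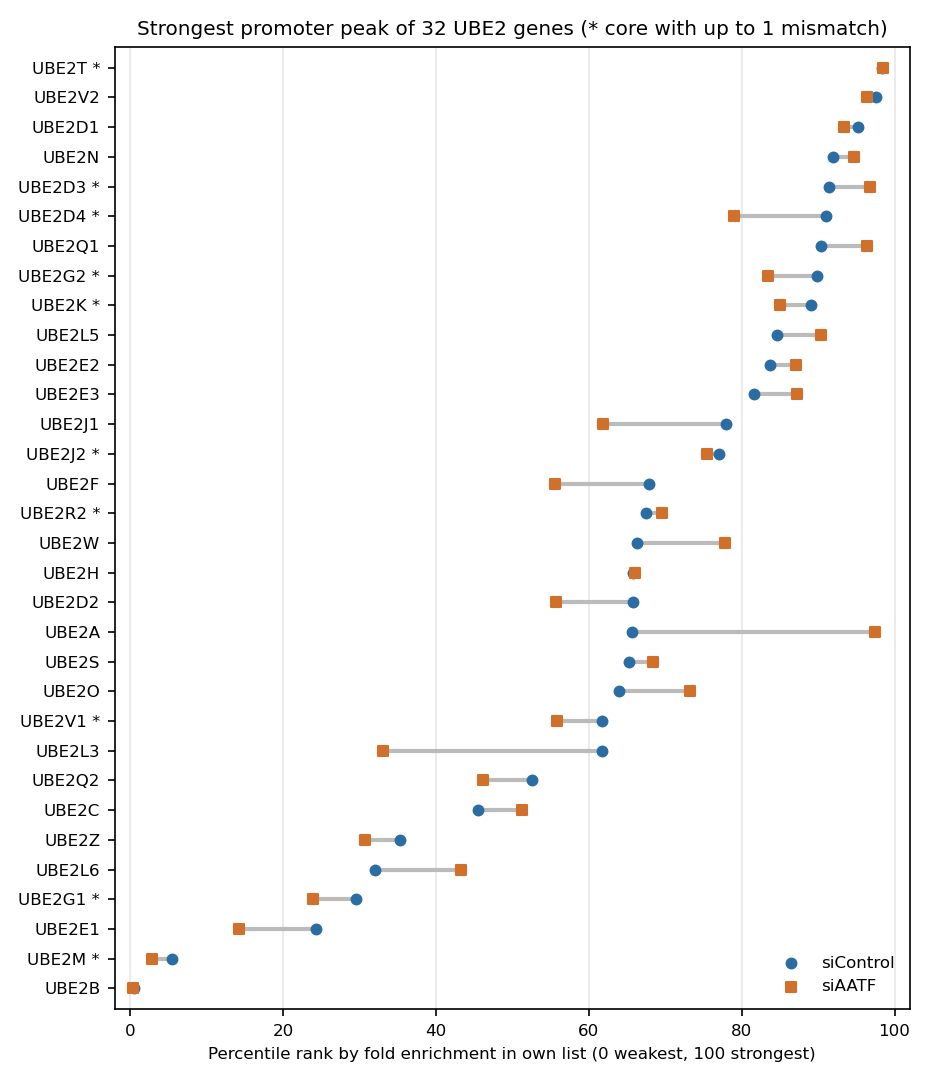
Percentile rank by fold enrichment of the promoter peak of 32 of the 33 occupied UBE2 genes (the other is not reported here) in siControl (blue circles) and siAATF (orange squares), sorted by siControl, with an asterisk at the 10 genes with a core match. The widest gaps are at UBE2A (65.7 and 97.4) and UBE2L3 (61.7 and 33.1), followed by UBE2J1 (77.9 and 61.9).

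UBE2A was the one gene ranked more than 20 points higher in siAATF, where 3.65% of coding genes with a promoter peak in both lists were. Its fold enrichment was 6.91 in siControl (chrX:118708151-118708815) and 9.37 in siAATF (chrX:118708113-118708633). The rank was 65.7 and 97.4, a change of 31.8 points, and its −log10 q was 11.2 and 19.9. The siAATF peak was narrower, 521 bp beside 665 bp. By −log10 q the ranks were 53.3 and 69.0, a change of 15.7 points.

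UBE2L3, which serves HECT and RBR ligases including parkin, was the one gene ranked more than 20 points lower, where 2.90% of coding genes were. Its fold enrichment was 6.63 in siControl (chr22:21921816-21922508) and 4.65 in siAATF (chr22:21921831-21922482). The rank was 61.7 and 33.1, a change of −28.6 points, and its −log10 q was 9.88 and 4.64. By −log10 q the ranks were 49.96 and 31.04, a change of −18.9 points. With only peaks of −log10 q of at least 5, UBE2L3 had no siAATF peak and could not be compared.

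No UBE2 gene differed by more than 20 points by −log10 q in either direction, where 1.53% of coding genes were higher and 1.06% lower. The next largest differences by fold enrichment were at UBE2J1 (−16.0 points), UBE2F (−12.3), UBE2D4 (−11.9), UBE2W (11.4) and UBE2L6 (11.3). UBE2D4 kept a rank of 97.6 by −log10 q in siAATF, beside 99.5 in siControl. With 2 of 33 genes beyond 20 points, the family stood near the share over all coding genes.

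The size of the difference went with the significance of the peak. The 10 genes with a core match had differences between −11.9 and 5.44 points by fold enrichment and between −1.87 and 1.76 points by −log10 q, with 7 of the 10 lower by fold enrichment, where 54.8% of all coding genes with a match were lower. The 23 without had differences between −28.6 and 31.8 points and between −18.9 and 15.7 points. Of these 23, 11 were lower by fold enrichment, where 46.9% of all coding genes without a match were lower. The median size was 4.72 points with a match and 5.97 without, beside 3.13 and 6.14 over all coding genes. Both genes beyond 20 points were among the 10 with a rank of 60 or below by −log10 q in siControl, none of which held a match. Over all coding genes at such ranks 12.3% differed by more than 20 points, beside 0.574% at ranks above 90. Significance, match and steadiness thus moved together, and their separate parts were not tested. A percentile rank ends at 100, so genes near the top of the scale had little room to rise.

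**Figure D4:**
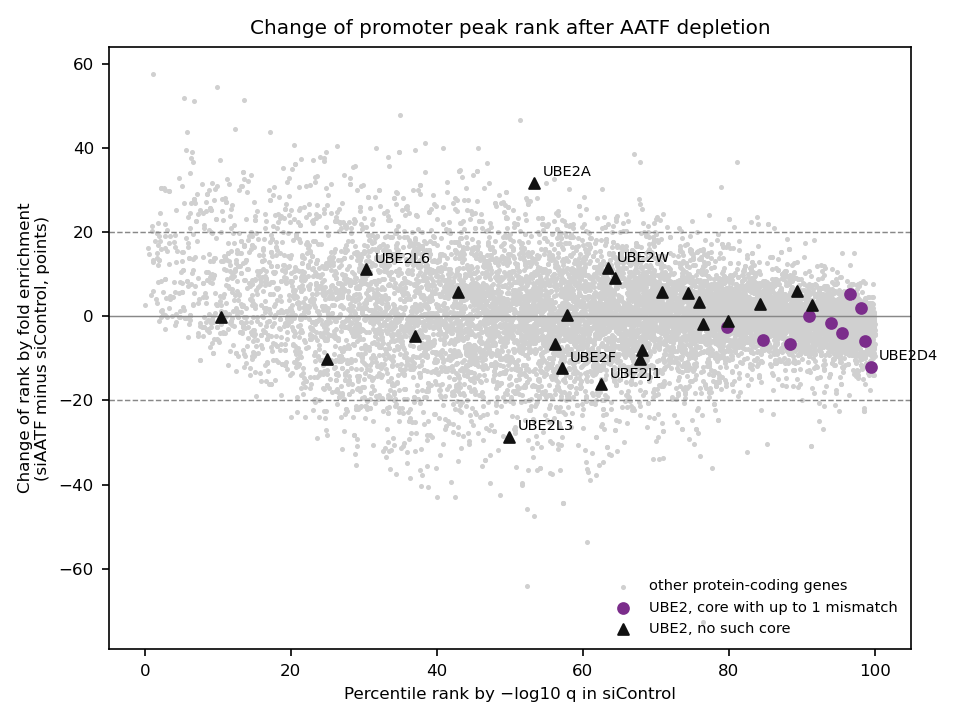
Change of rank by fold enrichment (siAATF minus siControl, points) against the rank by −log10 q in siControl for UBE2 genes with a core match (purple circles), UBE2 genes without (black triangles) and the other coding genes with a promoter peak in both lists (grey dots), with dashed lines at 20 points either way. UBE2A at 31.8 and UBE2L3 at −28.6 lie outside the lines at middle ranks, and the spread narrows to the right, where the purple circles lie.

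Other genes of the pathway were read in the same way. Of 10 E1 genes, 9 had a promoter peak in both lists and UBA7, the E1 of ISG15, in neither. SAE1, a subunit of the SUMO E1, held the exact palindrome, and NAE1 and ATG7 a match with 1 mismatch. ATG7, the E1-like enzyme of autophagy, had the highest −log10 q of these genes, 78.9 in siControl and 70.2 in siAATF. All 8 conjugating enzymes and variants with other names had a peak in both lists. CDC34, the close relative of UBE2R2, held a match and had a −log10 q of 89.8 and 72.7, and BIRC6, which carries an E2 domain, held one and had 93.0 and 83.1.

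Of 17 genes for ubiquitin and ubiquitin-like proteins, 14 had a promoter peak in both lists. UFM1 had one in siControl only, with a fold enrichment of 4.45 and a −log10 q of 3.13, and UBD and GABARAP had none. Matches were found at genes that included UBB, which encodes ubiquitin itself, and MAP1LC3B. MAP1LC3B had the highest −log10 q, 91.5 in siControl and 80.8 in siAATF.

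Of 14 cullin-RING core genes 13 had a peak in both lists, with none at ELOC and with matches at CUL1, RBX1 and SKP1. RBX1, the RING subunit, had the highest −log10 q, 72.6 in siControl and 70.9 in siAATF. Of 16 genes of the anaphase-promoting complex, which works with UBE2C and UBE2S, 15 had a peak in siControl and 16 in siAATF, since CDC23 had one in siAATF only, with a fold enrichment of 4.25 and a −log10 q of 2.93. Matches were found at 7 of them, ANAPC1, ANAPC2, ANAPC7 (exact), ANAPC11, ANAPC13, ANAPC16 and FZR1. ANAPC11 had the highest −log10 q, 95.1 and 82.7, at a peak it shares with ALYREF. The peak of ANAPC16 is likewise shared, with ASCC1. Over genes with a siControl peak, matches were found at 46.7% of the anaphase-promoting complex list, 33.3% of the E1 list, 25% of the conjugating enzymes with other names, 23.1% of the cullin-RING list and 20% of the ubiquitin list, beside 24.4% of all coding genes. CDC20, an activator of the complex, was the only gene of these lists beyond 20 points, with a rank by fold enrichment of 51.8 in siControl and 78.1 in siAATF, a change of 26.3 points.

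**Figure D5:**
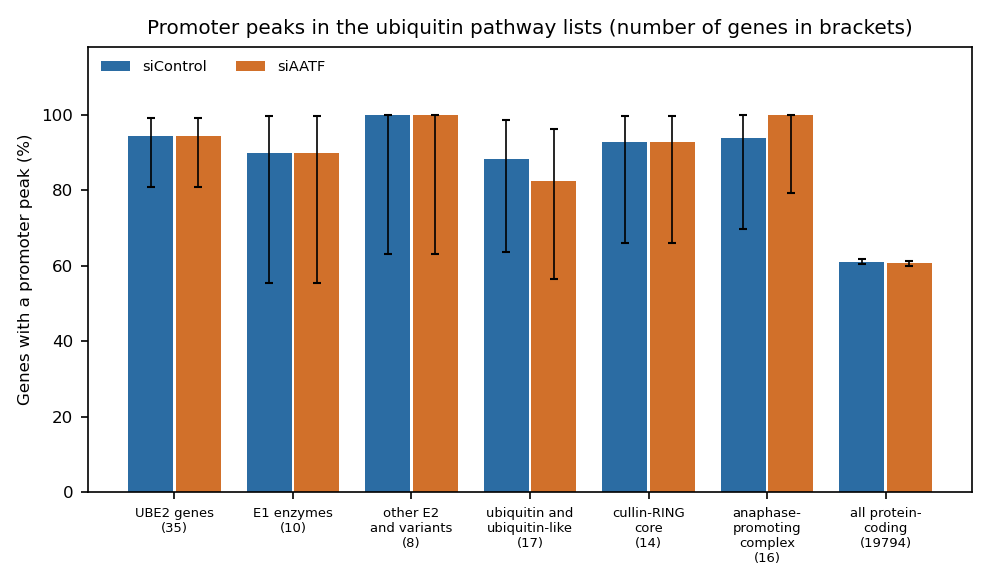
Share of genes with an NRF-1 promoter peak (%, from 0) in siControl (blue) and siAATF (orange) for UBE2 genes, the other ubiquitin pathway lists and all coding genes, with the number of genes in brackets and exact Clopper-Pearson 95% intervals as bars (counting error only). The pathway lists stand between 82.4% and 100%, and all coding genes at 61.1% and 60.7%.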

How the data were processed

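U251 cells were profiled by anti-NRF-1 ChIPmentation after siControl or siAATF transfection. Reads were aligned by the authors with Bowtie2 to hg19 and peaks called with MACS2 in a pipeline written for ATAC-seq, which may shift peak edges alike in both lists. Duplicate experiments were described, but each label carries replicate 1, and whether reads were pooled is not given in the sources used here. For each peak the authors deposited a fold enrichment (a ratio), a −log10 p and a −log10 q. Fold enrichment and −log10 q were used, and −log10 p was not. The lists hold no read counts, so depth was unknown and precision cannot be derived from it.

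Peaks were joined to promoters in GENCODE release 44 lifted to hg19, and sequence was read from GRCh37 with pysam 0.24.0 in Python 3.11.15 with pandas 2.3.3 and scipy 1.17.1. The join, the ranks and the palindrome search were tested on simulated data. Values are printed in full for the 6 genes with the highest −log10 q in siControl, the genes with a peak in 1 list or neither, those with a rank difference over 20 points, those with a core match and the 3 lowest ranks by fold enrichment. Members of other roles that illustrate a group were added after their values were seen. The values of a few genes that enter the counts are not reported here. The members and lists were chosen with earlier results of these data known. The alternatives were −log10 q of at least 5, the 10000 strongest peaks, promoter windows of 500 bp and 2 kb, canonical starts alone, ranking by −log10 q, the exact core, 3 related words, a core within 100 bp of the midpoint, reciprocal overlap of 50% and a gap of 500 bp. RefSeq tables of another build were not used.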

Additional observations from a re-analysis of the deposited data

How the results depend on the processing

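Over 11 alternative settings, 44 values of 8 results were recomputed, of which 38 stayed within 1.5 times the reported count or within the interval of the reported median (−5.63 to 3.06 points) and 6 did not. The number of genes beyond 20 points, 2 as reported, was 5 of 26 with the 10000 strongest peaks of each list and 0 with ranking by −log10 q. The 5 were UBE2A (57.1 points), UBE2D2 (−20.1), UBE2D4 (−22.4), UBE2F (−24.2) and UBE2J1 (−30.5). A rank among fewer peaks spans a wider scale, and 16.1% of all coding genes were then beyond 20 points. UBE2L3 left that comparison, since its siAATF peak was not among the 10000. With −log10 q of at least 5 the count was again 2, but the genes were UBE2A (46.8 points) and UBE2J1 (−24.5), and 10.95% of all coding genes were beyond 20 points. The genes with a core match, 10 in each list, were 1 in each list with the exact core, UBE2K, and 3 in each list with 3 related words (the exact core and T6C on either strand), UBE2G2, UBE2K and UBE2R2. With −log10 q of at least 5, 30 of the 35 UBE2 genes had a promoter peak in each list. Over all 19794 coding genes, 10180 did in siControl and 10177 in siAATF. The UBE2 genes that then dropped out were UBE2B and UBE2E1 in both lists, UBE2L6 in siControl and UBE2L3 in siAATF. No paired analysis was possible because no second replicate of either condition was analysed, and leaving out a replicate was not possible for the same reason. Depth was unknown, so a gene without a peak, such as UBE2QL1 or UBE2U, may be below detection.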

Other observations

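Outside their promoters, 5 UBE2 genes had peaks in their annotated span. The share over all coding genes was not computed, so the count cannot be called high or low. UBE2A had 3 in each list, the strongest at chrX:118636504-118637098 in siControl, centred at −71725 bp from the canonical start, with a fold enrichment of 7.99 and a −log10 q of 15.0. The siAATF peak there had 5.74 and 6.62, while the promoter peak of UBE2A was the stronger in siAATF. The peak at chrX:118616424-118617075 differed little, with a fold enrichment of 7.52 in siControl and 7.59 in siAATF. That at chrX:118699179-118699568, in the promoter of another coding gene, had 5.15 and 3.98. UBE2L3 had 1 peak at −11606 bp from its canonical start in siControl, with a fold enrichment of 4.23 in siControl and 5.78 in siAATF and a −log10 q of 2.82 and 6.05, the opposite order to its promoter peak. UBE2M had 1 at chr19:59066078-59067200, in the promoter of another coding gene, which like the UBE2M promoter peak combined a low fold enrichment with a high significance, 4.10 and a −log10 q of 59.2 in siControl. UBE2H had 1 weak peak in each list, and UBE2V1 had 2 weak peaks in siAATF only.

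Of 54 annotated UBE2 pseudogenes, 5 had a peak within 1 kb of their span, a share not computed over all pseudogenes. Of these 5, 4 were copies of UBE2Q2 on chromosome 15 with a peak in both lists. At UBE2Q2P16 the fold enrichment was 10.4 in siControl (chr15:84841071-84842078) and 10.8 in siAATF (chr15:84841046-84841640), with a −log10 q of 41.7 and 35.7. Both values exceeded those of the UBE2Q2 promoter, where the fold enrichment was 5.99 and 5.35 and the −log10 q 12.5 and 8.46. UBE2Q2P11 had a fold enrichment of 7.96 in siControl and 7.203 in siAATF, UBE2Q2P12 had 8.004 and 7.47, and UBE2Q2P1 had 5.14 and 4.998. UBE2V1P4 had a weak peak in siAATF only, with a −log10 q of 1.698. How reads that fit several near-identical copies were placed is not given in the sources used here.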
